A study of Mus musculus with 6 samples.

Results

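The 10 genes described here encode calcineurin, its regulators, its NFAT targets and the δ and γ subunits of CaMKII. They were Rcan1, Rcan2, Ppp3ca, Ppp3cb, Nfatc1, Nfatc2, Nfatc3, Nfatc4, Camk2d and Camk2g, taken by gene symbol from a table of read counts per gene. All 10 were among the 17121 genes of that table, and all 10 had enough reads to be tested, as had 13040 genes in all. The counts came from RNA-sequencing of left ventricles of 3 CMNKO mice and 3 LC mice, with 1 library per mouse. CMNKO mice lacked NCoR1, a nuclear receptor corepressor, in cardiomyocytes, and LC mice were their littermate controls. CMNKO mice came from a cross of floxed NCoR1 mice with αMHC-Cre mice, in which a cardiac myosin promoter drives the recombinase in cardiomyocytes, so that the other cells of the ventricle kept the gene. Mice of both groups were 2 months old and on a C57BL/6 background (the J substrain in the study's methods), and no operation or drug is named in their labels. The sources used here do not give the sex of these 6 mice or the alleles carried by the LC mice.

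Calcineurin is a phosphatase that calcium and calmodulin switch on. It strips phosphates from the NFAT transcription factors, which then enter the nucleus and act with partners such as GATA4 and MEF2 on genes of hypertrophic growth. CaMKII, a kinase that calcium and calmodulin also switch on, phosphorylates calcium-handling proteins of the cardiomyocyte and class IIa histone deacetylases, which then leave the nucleus and release MEF2. The activity of calcineurin, NFAT and CaMKII is set largely by phosphorylation and location in the cell, which transcript levels do not measure. Rcan1 is the exception that is often read at the transcript level, since NFAT itself switches on its internal promoter and the Rcan1 protein binds calcineurin.

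Because Rcan1 transcripts can start at either of these promoters, both windows are shown here before its values. The sequences are from RefSeq on build GRCm38.p6, run from 250 bases before to 50 bases after a start site, and are written 5′ to 3′ on the minus strand, on which Rcan1 lies. Capitals mark GGAAA, the core bound by NFAT, or its reverse complement TTTCC.
Rcan1 upstream start, chr16:92466120-92466419: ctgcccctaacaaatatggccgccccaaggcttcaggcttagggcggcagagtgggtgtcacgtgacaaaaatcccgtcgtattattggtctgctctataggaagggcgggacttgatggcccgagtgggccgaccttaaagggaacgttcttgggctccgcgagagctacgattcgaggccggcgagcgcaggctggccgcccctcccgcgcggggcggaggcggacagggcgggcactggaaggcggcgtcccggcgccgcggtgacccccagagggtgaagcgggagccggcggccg
Rcan1 internal start, chr16:92400029-92400328: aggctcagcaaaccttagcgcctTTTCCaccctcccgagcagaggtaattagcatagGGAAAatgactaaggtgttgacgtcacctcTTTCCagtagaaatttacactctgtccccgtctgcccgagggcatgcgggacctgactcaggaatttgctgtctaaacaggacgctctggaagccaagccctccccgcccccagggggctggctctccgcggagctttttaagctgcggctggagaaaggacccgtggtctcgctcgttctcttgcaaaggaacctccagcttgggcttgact
The start sites lie 66091 bases apart. The internal window held the core 3 times on either strand, with first bases 227, 193 and 163 bases before the start, and the upstream window held it 0 times. Of 32851 RefSeq promoter windows of the same length, 61.3% held the core at least 1 time and 9.42% at least 3 times. The internal window also held TGACTCA, the AP-1 motif, beginning 110 bases before the start, and TGACGTCA, the cyclic AMP response element, beginning 175 bases before it. These letters were found in 5.2% and 1.79% of all windows, and neither overlapped a GGAAA or TTTCC. Windows were found for 7 of the 10 genes, and the single window of Ppp3cb held the GGAAA core 4 times, as at least that many were held by 2.65% of all windows. A match of letters is a description of the sequence and no evidence of binding. The counts were summed over the gene, so transcripts from the 2 Rcan1 starts could not be told apart in the values that follow.

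Total counts ranged from 6747840 to 8752609 in CMNKO libraries and from 6319488 to 8269911 in LC libraries. Ncor1 had 50.5, 51.3 and 42.4 CPM (counts scaled to library size) in CMNKO 16, 17 and 18, against 110.6, 102.0 and 90.7 CPM in LC 15, 25 and 26, a log2 fold change of -1.07 (SE 0.13, Benjamini-Hochberg adjusted p = 0.00845, quasi-likelihood test of edgeR). Library sizes were scaled by TMM, which assumes that most genes do not differ. With 1 CMNKO mouse left out the adjusted p of Ncor1 in that test ran from 0.0536 (CMNKO 18 left out) through 0.0759 (CMNKO 17) to 0.0862 (CMNKO 16). In the labels the library numbers of LC 15 and of the CMNKO mice are consecutive, and those of LC 25 and LC 26 come later. They are called series 1 and series 2 here, although the labels name no batch. LC 25 and LC 26 also stood apart in mitochondrially encoded counts, with 26.3% to 27.9% of counts in CMNKO libraries, 26.3% in LC 15, 36.1% in LC 25 and 32.8% in LC 26. Cardiomyocyte markers summed to between 50325 and 55640 CPM in CMNKO mice and between 45414 and 60078 CPM in LC mice, with 6 of 6 detected. The 2 atrial markers in the table summed to between 2.24 and 2.89 CPM in CMNKO mice and between 1.40 and 5.47 CPM in LC mice. These markers show heart muscle and do not tell the left ventricle from the right.

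None of the 10 genes changed past the threshold in CMNKO ventricles. By edgeR's quasi-likelihood test 0 of 10 passed an adjusted p of 0.05, where 0.606% of all tested genes (79 of 13040) did. Without adjustment 0 of 10 had a p under 0.05, which 18.9% of all tested genes had, and DESeq2 and limma-voom also called 0 of the 10 and gave 0 of them an unadjusted p under 0.05. The 10 log2 fold changes ran from -0.20 for Ppp3cb to 0.39 for Nfatc1 with a median of 0.07, and 7 were above 0, where the median of all tested genes was 0.0012. The groups did not overlap for 2 of the 10 genes, Rcan2 and Ppp3cb, where they did not overlap for 23.6% of all tested genes. With libraries scaled by their totals in place of TMM they did not overlap for 1 of the 10, Rcan2, and for 23.9% of all tested genes. In these bulk samples fewer cells of a type and less RNA per cell cannot be told apart.

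**Figure D1:**
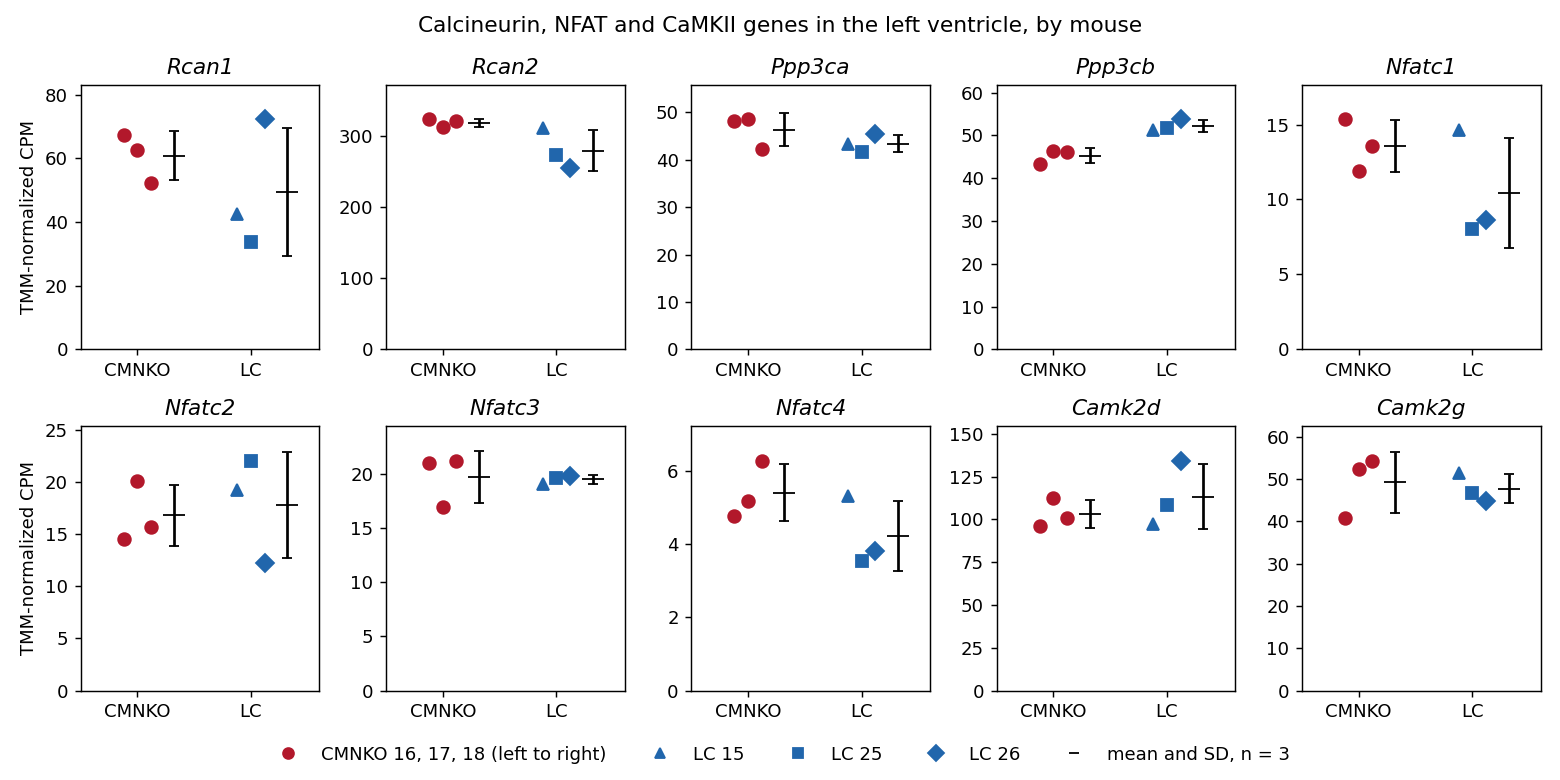
TMM-normalized CPM of the 10 genes in each mouse (y axis, from 0), CMNKO left and LC right in each panel, with the group mean and SD beside the points (n = 3). Groups overlapped in 8 of the panels, Rcan2 was just higher and Ppp3cb lower in the CMNKO mice, and LC 15 sat with the CMNKO mice for Nfatc1 and Nfatc4.

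Among the calcineurin regulators, Rcan1 spread widely between LC mice and its groups overlapped, and Rcan2 was slightly higher in CMNKO mice without passing the test. Rcan1 had 67.5, 62.7 and 52.4 CPM in CMNKO 16, 17 and 18, against 42.4, 33.6 and 72.2 CPM in LC 15, 25 and 26. LC 26 was the highest of the 6 mice and LC 25 the lowest, so that the groups overlapped. Rcan1 averaged 60.9 ± 7.73 CPM in CMNKO mice and 49.4 ± 20.2 CPM in LC mice (SD, n = 3 each). The log2 fold change was 0.30 (SE 0.24, 95% interval -0.23 to 0.82), which spans folds of 0.853 to 1.76, with an adjusted p of 0.507 in edgeR's quasi-likelihood test. Among the 3 LC mice the highest CPM of Rcan1 was 2.15 times the lowest. A spread as large between LC mice was found in 10.7% of all tested genes, whose median was 1.39 times. Between the CMNKO mice the highest Rcan1 CPM was 1.29 times the lowest. Without LC 26 the log2 fold change of Rcan1 was 0.68 (unadjusted p = 0.0026, adjusted p = 0.193 in the same test), the highest of the 6 values with a mouse left out, and the lowest was 0.08. Adding the library series as a term gave 0.52 (adjusted p = 0.771).

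Rcan2, a relative of Rcan1 that also binds calcineurin and that responds to thyroid hormone in human cells, had 323.2, 312.0 and 320.4 CPM in CMNKO 16, 17 and 18. It had 311.0, 273.4 and 254.3 CPM in LC 15, 25 and 26. The lowest CMNKO mouse was only just above the highest LC mouse, so the groups were barely apart. Rcan2 averaged 318.6 ± 5.84 CPM in CMNKO mice and 279.6 ± 28.9 CPM in LC mice (SD, n = 3 each). Its log2 fold change was 0.19 (SE 0.12, 95% interval -0.08 to 0.46), that is folds of 0.944 to 1.38, and its adjusted p was 0.414 in edgeR's quasi-likelihood test. With the library series as a term, which leaves LC 15 as the control, the log2 fold change of Rcan2 was 0.03.

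The calcineurin A subunits, which carry the catalytic site, had small fold changes of opposite sign, and neither passed the test. Ppp3ca, the Aα subunit, had 48.2, 48.5 and 42.3 CPM in CMNKO 16, 17 and 18, against 43.2, 41.7 and 45.4 CPM in LC 15, 25 and 26. CMNKO 18 lay among the LC mice, and the groups overlapped. Ppp3ca averaged 46.3 ± 3.50 CPM in CMNKO mice and 43.4 ± 1.85 CPM in LC mice (SD, n = 3 each), a log2 fold change of 0.09 (SE 0.12, 95% interval -0.18 to 0.37, adjusted p = 0.696 by edgeR's quasi-likelihood test). Ppp3cb, the Aβ subunit that in mice is required for a full hypertrophic response to pressure overload, had 43.4, 46.4 and 46.2 CPM in CMNKO 16, 17 and 18. It had 51.2, 51.6 and 53.7 CPM in LC 15, 25 and 26. All 3 CMNKO mice were below all 3 LC mice. Ppp3cb averaged 45.3 ± 1.70 CPM in CMNKO mice and 52.2 ± 1.37 CPM in LC mice (SD, n = 3 each). The log2 fold change was -0.20 (SE 0.12, 95% interval -0.46 to 0.06) with an adjusted p of 0.361 in edgeR's quasi-likelihood test, and the groups overlapped when libraries were scaled by their totals in place of TMM, where the log2 fold change was -0.08. The intervals of both subunits lay within folds of 0.725 and 1.29, so a change of the size seen in Ncor1 was outside them.

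The ratio of Ppp3ca to Ppp3cb within a library, each per kilobase of longest transcript, does not depend on scaling. It was 0.896, 0.841 and 0.737 in CMNKO 16, 17 and 18, against 0.680, 0.650 and 0.680 in LC 15, 25 and 26. All 3 CMNKO mice were above all 3 LC mice, and LC 15 lay with LC 26. The mean log2 ratio was higher by 0.30 in CMNKO mice (two-sided exact permutation test p = 0.1, the smallest that 3 against 3 mice can give, and 0.7 after adjustment over 7 such values). With a mouse left out the difference ran from 0.23 to 0.37. The other 6 values were the log2 ratios of Rcan1 to Rcan2 and of Camk2d to Camk2g and the share of each NFAT gene in the summed level of all 4. All were taken per kilobase of longest transcript, and their exact permutation p ran from 0.3 to 0.8.

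The 4 calcium-regulated NFAT genes were the least abundant of the 10 per kilobase of transcript, and none of them passed the test. Nfatc1, which in the heart is known from the endocardium and the forming valves, had 15.3, 11.9 and 13.6 CPM in CMNKO 16, 17 and 18. It had 14.7, 8.04 and 8.65 CPM in LC 15, 25 and 26. LC 15 lay among the CMNKO mice, while LC 25 and LC 26 were below all of them. Nfatc1 averaged 13.6 ± 1.73 CPM in CMNKO mice and 10.5 ± 3.66 CPM in LC mice (SD, n = 3 each). The log2 fold change was 0.39 (SE 0.23, 95% interval -0.13 to 0.90), that is folds of 0.914 to 1.87, with an adjusted p of 0.381 in edgeR's quasi-likelihood test. Without LC 15 all CMNKO mice were of series 1 and all LC mice of series 2, so genotype and series were inseparable. That fit called 2624 of 13495 tested genes. In it the log2 fold change of Nfatc1 was 0.70 (adjusted p = 0.0241 in the same test). With the library series as a term it was -0.10 (adjusted p = 0.956), so that the direction of Nfatc1 turned on which LC mice it was set against.

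Nfatc4, a family member that drives hypertrophy in mouse hearts when made active, followed the same order at the lowest level of the 10. It had 4.78, 5.17 and 6.28 CPM in CMNKO 16, 17 and 18, from 43, 37 and 50 counts. It had 5.30, 3.54 and 3.80 CPM in LC 15, 25 and 26, from 34, 22 and 29 counts. LC 15 was again level with the CMNKO mice and LC 25 and LC 26 were lower. Nfatc4 averaged 5.41 ± 0.777 CPM in CMNKO mice and 4.21 ± 0.952 CPM in LC mice (SD, n = 3 each), a log2 fold change of 0.36 (SE 0.25, 95% interval -0.19 to 0.90, adjusted p = 0.435 by edgeR's quasi-likelihood test). With the library series as a term the log2 fold change of Nfatc4 was 0.03.

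Markers of endothelial cells were also lowest in LC 25 and LC 26, but LC 15 was below all 3 CMNKO mice in them. The 6 markers on the list, all detected, summed to 697.4, 589.1 and 647.9 CPM in CMNKO 16, 17 and 18, against 524.6, 406.9 and 402.2 CPM in LC 15, 25 and 26. Of these 6 genes 0 passed an adjusted p of 0.05 in edgeR's quasi-likelihood test and 4 were higher at an unadjusted p under 0.05, as were 10.1% of all tested genes. LC 15 was the highest LC mouse in this sum, as it was for Nfatc1 and Nfatc4. The 3 endocardial and valve markers present in the table summed to 56.4, 32.8 and 30.6 CPM in CMNKO 16, 17 and 18. In LC 15, 25 and 26 they summed to 30.1, 25.6 and 15.5 CPM. Of these 3 genes 2 were higher at an unadjusted p under 0.05. So were 3 of 5 tested smooth muscle and pericyte, 3 of 5 macrophage and 2 of 6 fibroblast markers. In each list 0 passed the adjusted threshold. Smooth muscle and pericyte, fibroblast and macrophage markers summed to 273.1, 550.5 and 153.2 CPM in LC 15. These sums lay inside the CMNKO ranges of 262.8 to 298.9, 485.2 to 799.7 and 148.5 to 219.9 CPM. LC 25 and LC 26 were below all CMNKO mice in each. The part of these cells in the values of Nfatc1 and Nfatc4 and of the pathway genes described further on was not tested.

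**Figure D2:**
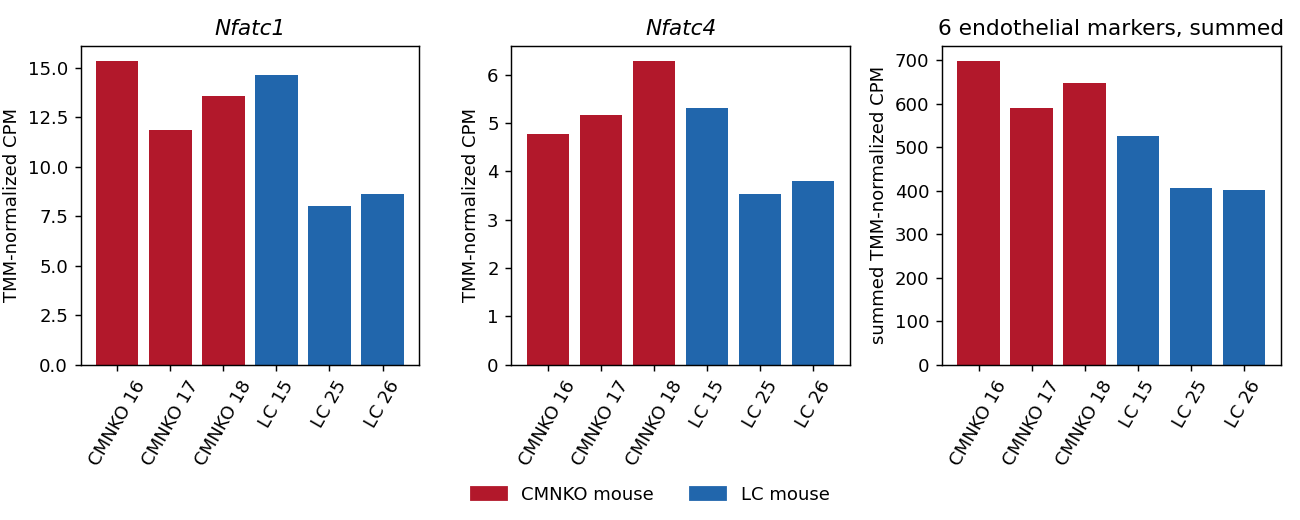
TMM-normalized CPM of Nfatc1 and Nfatc4 and the summed CPM of 6 endothelial markers (y axes, from 0), 1 bar per mouse, CMNKO in red left of LC in blue. In all 3 panels LC 15 is the highest LC mouse, and LC 25 and LC 26 are below every CMNKO mouse.

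Nfatc2 and Nfatc3 showed no shift in either direction that held over the settings tried. Nfatc2, best known from T cells, had 14.6, 20.1 and 15.7 CPM in CMNKO 16, 17 and 18, against 19.2, 22.04 and 12.2 CPM in LC 15, 25 and 26. The highest and the lowest of the 6 mice were both LC mice. Its log2 fold change was -0.08 (SE 0.22, 95% interval -0.57 to 0.41, adjusted p = 0.863 by edgeR's quasi-likelihood test). The 7 lymphocyte markers on the list were all detected but summed to only 1.63 to 2.11 CPM in CMNKO mice and 2.03 to 4.18 CPM in LC mice, from 13 to 31 counts per library, and 0 of the 7 had enough reads to be tested. Nfatc3 had 21.01, 16.9 and 21.2 CPM in CMNKO 16, 17 and 18, against 19.0, 19.6 and 19.8 CPM in LC 15, 25 and 26. The LC mice were nearly level and lay inside the range of the CMNKO mice. Its log2 fold change was 0.02 (SE 0.15, 95% interval -0.32 to 0.35, adjusted p = 0.955 by edgeR's quasi-likelihood test). The highest LC mouse had 1.04 times the Nfatc3 CPM of the lowest, and 98.9% of all tested genes spread at least as widely between LC mice.

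The CaMKII subunits Camk2d and Camk2g, the δ and γ forms found in heart muscle, had fold changes near 1 that did not pass the test. Camk2d, the main cardiac form, had 96.4, 112.3 and 101.1 CPM in CMNKO 16, 17 and 18, against 97.3, 108.1 and 134.2 CPM in LC 15, 25 and 26. LC 26 was above all other mice and the groups overlapped. Camk2d averaged 103.3 ± 8.21 CPM in CMNKO mice and 113.2 ± 19.0 CPM in LC mice (SD, n = 3 each). The log2 fold change was -0.13 (SE 0.14, 95% interval -0.45 to 0.18, adjusted p = 0.623 by edgeR's quasi-likelihood test), it was 0.01 without LC 26, and with the library series as a term it was 0.08. Camk2g had 40.9, 52.4 and 54.4 CPM in CMNKO 16, 17 and 18, against 51.5, 46.8 and 44.8 CPM in LC 15, 25 and 26. CMNKO 16 was the lowest of the 6 mice and the other two CMNKO mice the highest. Its log2 fold change was 0.04 (SE 0.14, 95% interval -0.27 to 0.36, adjusted p = 0.883 by edgeR's quasi-likelihood test).

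**Figure D3:**
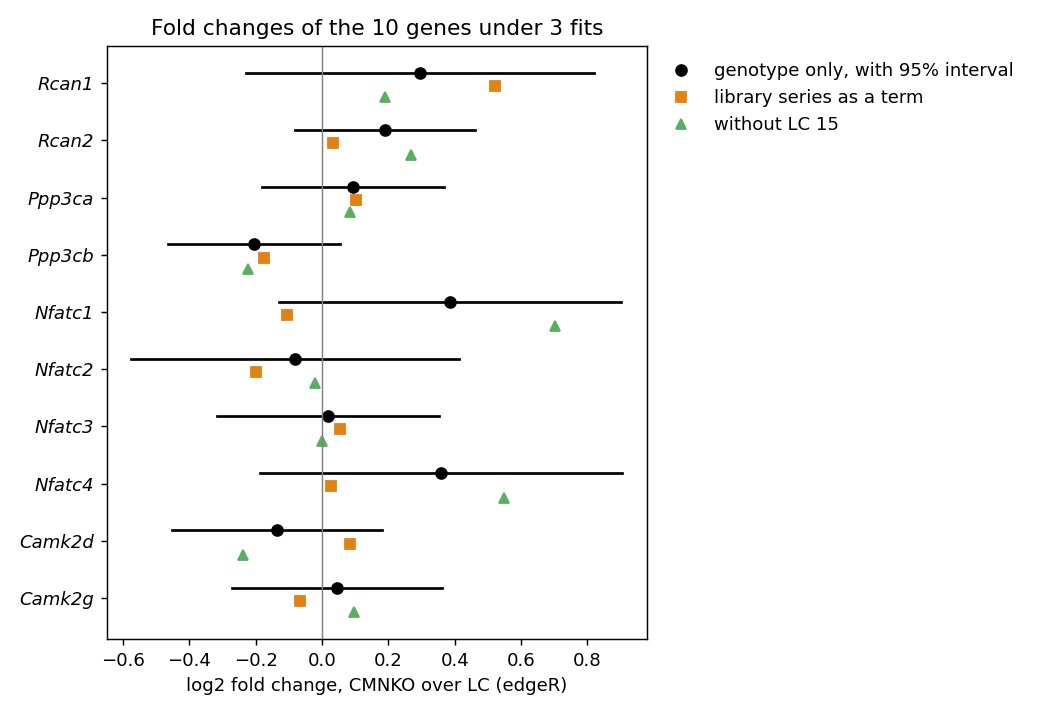
Log2 fold changes of the 10 genes, CMNKO over LC (x axis), from edgeR with genotype alone (circles, bars are 95% intervals), with the library series as a term (squares) and without LC 15 (triangles). All 10 intervals include 0, and Nfatc1 moves between -0.10 and 0.70 with the LC mice it is set against.

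Per kilobase of the longest transcript the 10 genes spanned a wide range of levels, and the order given here is over all 6 mice. Rcan2 had the highest level, with between 76.8 and 97.6 CPM per kilobase over the 6 mice, above every value of Rcan1 (14.5 to 31.1 CPM per kilobase). The ranges of Rcan1 and Camk2d (17.4 to 24.3 CPM per kilobase) overlapped. Camk2d was above Camk2g (11.05 to 14.7 CPM per kilobase), whose range overlapped with that of Ppp3cb (11.3 to 14.0 CPM per kilobase). Ppp3ca was lower (8.76 to 10.2 CPM per kilobase) and did not reach Ppp3cb in any mouse. Then came Nfatc3, Nfatc1 and Nfatc2, with medians of 3.29, 2.65 and 2.55 CPM per kilobase and overlapping ranges. Nfatc4 was the lowest at 0.938 to 1.66 CPM per kilobase. Since transcripts of a gene differ in length, these levels rank genes only roughly.

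**Figure D4:**
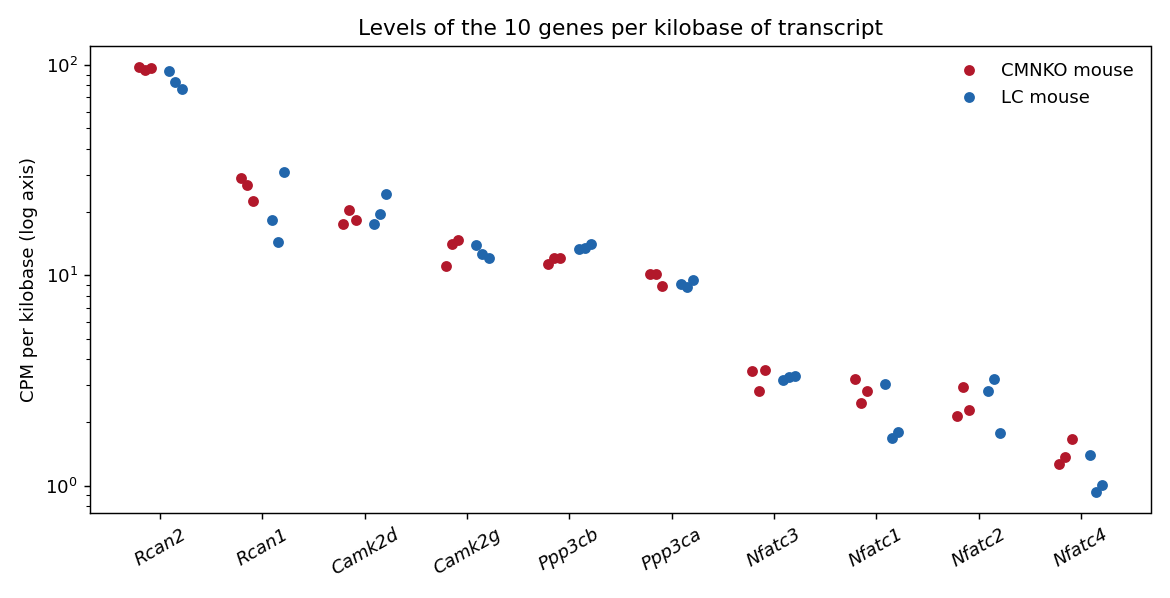
CPM per kilobase of longest transcript (log axis) of the 10 genes in each mouse, in order of their medians, CMNKO in red left of LC in blue. Rcan2 lies above the rest in all 6 mice, with a median of 94.0 CPM per kilobase, and Nfatc4 at the low end with a median of 1.32.

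Genes with profiles most like those of Rcan1, Ppp3ca and Camk2d were found by the root mean square difference of log2 CPM, each profile centred over the 6 libraries. Nearest to Rcan1 were Plagl2 (difference 0.08), Nrgn (0.11) and Nt5e (0.13), and each of these also had its LC 25 value below all other mice. Nearest to Ppp3ca were Taf8 and Ubxn4 (both 0.03) and Gdi2 (0.04). Nearest to Camk2d were Dxo and Sbno1 (both 0.04) and Cog4 (0.05), each with LC 26 above all other mice. With 13040 genes and 6 libraries near profiles are found for many genes, and no test was made. The features shared with the member follow from how these genes were picked.

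Around these 10 genes, 100 genes of the same pathway were listed by role, of which 98 were in the table and 89 could be tested. By edgeR's quasi-likelihood test 2 of the 89 were higher in CMNKO mice and 0 were lower at an adjusted p of 0.05, where 0.268% of all tested genes were higher and 0.337% lower. Limma-voom called Nppa as well, and DESeq2 called Nppa and Agtr1a as well. Without adjustment 15 of the 89 were higher and 5 lower at a p under 0.05, which held for 10.1% and 8.8% of all tested genes, and the counts by list given here are to be read against those shares. The median log2 fold change of the 89 was 0.16. CMNKO values were all above LC values for 14 of the 89 and all below for 5, where this held for 11.2% and 12.3% of all tested genes. Both genes past the threshold were on the list of hypertrophic targets. Values without LC 15 are given further on for Ccnd1, Acta1, Pcp4l1, Dyrk1b, Pln, Cacnb2, Agtr1a and Mapk3. In the fit without LC 15 all CMNKO mice were of series 1 and all LC mice of series 2. That fit called 2624 of 13495 tested genes and cannot separate genotype from series, so its adjusted p are to be read with that limit.

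**Figure D5:**
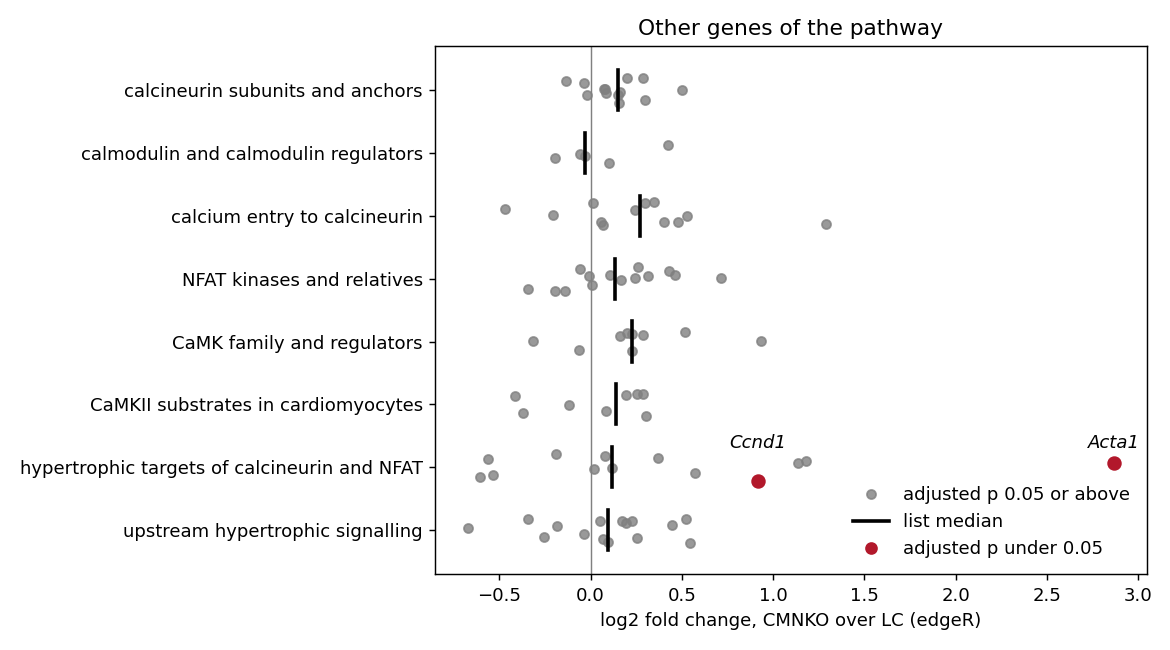
Log2 fold changes, CMNKO over LC (x axis, edgeR), of the 89 other genes of the pathway by list (rows), with the list median as a black line. The 2 genes with an adjusted p under 0.05, Ccnd1 and Acta1, are in red at 0.92 and 2.87.

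Of the 13 tested genes on the list of hypertrophic targets, 2 rose and 0 fell past the threshold, with a list median of 0.12 on the log2 scale. At an unadjusted p under 0.05 in edgeR's quasi-likelihood test 5 were higher, these 2 included, and 1 was lower. Nppa was above the adjusted threshold in that test, with a log2 fold change of 1.18 (adjusted p = 0.0672). Nppb had -0.60 (adjusted p = 0.521 in that test), with LC 26 at 465.2 CPM above all other mice, and Myh7 had 0.02. Of the 13 genes 9 had a log2 fold change above 0. Ccnd1, the cell cycle regulator cyclin D1, had 86.4, 79.6 and 76.5 CPM in CMNKO 16, 17 and 18, against 48.2, 44.4 and 35.9 CPM in LC 15, 25 and 26. All 3 CMNKO mice were well above all 3 LC mice. Ccnd1 had a log2 fold change of 0.92 (SE 0.14, adjusted p = 0.0195 by edgeR's quasi-likelihood test). Acta1 encodes an actin of skeletal muscle and the fetal heart whose protein is nearly the same as that of cardiac Actc1. Acta1 had 660.6, 1386 and 810.8 CPM in CMNKO mice and 161.4, 37.6 and 191.7 CPM in LC mice. The groups did not overlap, and LC 25 stood far below the other LC mice. Acta1 had a log2 fold change of 2.87 (SE 0.48, adjusted p = 0.0279 in the same test). With the library series as a term the log2 fold changes were 0.75 for Ccnd1 (adjusted p = 0.166) and 2.56 for Acta1 (adjusted p = 0.250), and with library totals the adjusted p of Acta1 was 0.0570. Both were also past the threshold without LC 15, as was Acta1 without LC 25. With other mice left out the adjusted p of Ccnd1 in that test ran from 0.0539 (LC 25) through 0.0625 (LC 26), 0.0644 (CMNKO 18) and 0.117 (CMNKO 17) to 0.119 (CMNKO 16). That of Acta1 was 0.0625 without LC 26, 0.0682 without CMNKO 18, 0.0862 without CMNKO 16 and 0.136 without CMNKO 17.

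The other calcineurin subunits, inhibitors and anchors had 0 of 13 genes past the threshold and a median log2 fold change of 0.15, and 1 had an unadjusted p under 0.05. That gene was Rcan3, the remaining regulator of the Rcan family, with 9.89, 9.36 and 11.4 CPM in CMNKO mice and 7.18, 6.44 and 7.997 CPM in LC mice (log2 fold change 0.50, adjusted p = 0.194 by edgeR's quasi-likelihood test). The groups of Rcan3 did not overlap. Cabin1, which binds and inhibits calcineurin and also represses MEF2, had a log2 fold change of 0.29 (adjusted p = 0.300 in the same test), and its groups did not overlap either, but with the library series as a term the value was 0.10. Of the 5 tested calmodulin genes and calmodulin regulators 0 passed, 1 was higher at an unadjusted p under 0.05, and the list median was -0.03 on the log2 scale. That gene, Pcp4l1, a relative of a calmodulin-binding peptide, had a log2 fold change of 0.43 (adjusted p = 0.209), which was 0.61 without LC 15 (adjusted p = 0.00885 by edgeR's quasi-likelihood test) and 0.11 with the library series as a term. Calm2, 1 of the genes for calmodulin, had -0.20 (adjusted p = 0.434), and 0.05 with that term.

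Genes of calcium entry had 0 of 12 past the threshold, 3 higher and 1 lower at an unadjusted p under 0.05, and a median log2 fold change of 0.27. Orai1, the pore of store-operated calcium entry, had 14.5, 14.8 and 15.9 CPM in CMNKO mice and 11.1, 10.5 and 10.9 CPM in LC mice. The 3 mice of each group were close together and the groups were apart. Its log2 fold change was 0.48 (SE 0.16, adjusted p = 0.151 by edgeR's quasi-likelihood test). Orai2 had a log2 fold change of 1.29 (adjusted p = 0.150 in the same test) from 20, 20 and 16 counts in CMNKO mice and 4, 10 and 5 counts in LC mice.

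The kinases that return NFAT to the cytoplasm and the NFAT relatives had 0 of 14 past the threshold, 1 higher and 1 lower at an unadjusted p under 0.05, and a median log2 fold change of 0.14. Dyrk1b, a relative of the NFAT kinase Dyrk1a, had a log2 fold change of 0.71 (adjusted p = 0.192 by edgeR's quasi-likelihood test), with LC 15 at 15.4 CPM inside the CMNKO range of 14.2 to 20.8 CPM. For Dyrk1b the log2 fold change was 1.08 without LC 15 (adjusted p = 0.00623 in the same test) and 0.16 with the library series as a term. Mapk8, the stress kinase JNK1, was lower in all 3 CMNKO mice than in all 3 LC mice, with a log2 fold change of -0.34 (adjusted p = 0.217).

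The CaMK family and its regulators had 0 of 9 past the threshold, 2 higher at an unadjusted p under 0.05, and a median log2 fold change of 0.23. The list holds 2 further CaMKII subunit genes. Camk2a had 33.8, 37.3 and 41.1 CPM in CMNKO mice and 52.4, 48.6 and 38.4 CPM in LC mice. Its log2 fold change was -0.31 (adjusted p = 0.288 by edgeR's quasi-likelihood test), and that of Camk2b was 0.29 (adjusted p = 0.518). Camk2n1, an inhibitor of CaMKII, had 21.2, 17.9 and 16.8 CPM in CMNKO mice and 13.3, 14.2 and 11.8 CPM in LC mice. All CMNKO mice were above all LC mice. Camk2n1 had a log2 fold change of 0.52 (SE 0.16, adjusted p = 0.149 by edgeR's quasi-likelihood test). Camkk1, a kinase upstream of CaMKI and CaMKIV, had a log2 fold change of 0.93 (adjusted p = 0.259) from 3 to 23 counts per library, and 2.29 with the library series as a term (adjusted p = 0.315). Of the 8 CaMKII substrates of the cardiomyocyte 0 passed, 1 was lower at an unadjusted p under 0.05, and the median log2 fold change was 0.14. Pln, phospholamban, the brake on the calcium pump of the sarcoplasmic reticulum, had 4698, 4758 and 4223 CPM in CMNKO mice and 5043, 6349 and 6813 CPM in LC mice. The groups did not overlap, and LC 15 was nearest to the CMNKO mice. The log2 fold change of Pln was -0.41 (SE 0.16, adjusted p = 0.202 by edgeR's quasi-likelihood test), -0.53 without LC 15 (adjusted p = 0.0147) and -0.15 with the library series as a term. Cacnb2, the β2 subunit of the L-type calcium channel, had a log2 fold change of -0.37 (adjusted p = 0.294), which was -0.53 without LC 15 (adjusted p = 0.0324 in that test) and -0.01 with the library series as a term.

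Receptors and kinases upstream of the pathway had 0 of 15 past the threshold, 2 higher and 1 lower at an unadjusted p under 0.05, and a median log2 fold change of 0.09. Agtr1a, the angiotensin II receptor, had 15.2, 15.8 and 17.3 CPM in CMNKO mice and 24.8, 26.9 and 25.4 CPM in LC mice. All CMNKO mice were below all LC mice, LC 15 included. Agtr1a had a log2 fold change of -0.67 (SE 0.14), with an adjusted p of 0.0672 by edgeR's quasi-likelihood test, 0.0309 by DESeq2, 0.0558 by limma-voom, and in edgeR 0.0488 with upper-quartile scaling, 0.113 with library totals and 0.336 with the library series as a term. Without LC 15 the adjusted p of Agtr1a was 0.00754 in edgeR's test, and without any other single mouse it was between 0.157 and 0.264. Mapk3, the kinase ERK1, had a log2 fold change of 0.54 (adjusted p = 0.172), and LC 15 at 42.0 CPM was just under the lowest CMNKO mouse at 43.0 CPM. For Mapk3 the log2 fold change was 0.82 without LC 15 (adjusted p = 0.00183 by edgeR's quasi-likelihood test) and 0.10 once a term for series was added. The values of Agtr1a and Mapk3 without LC 15 come from the fit that cannot separate genotype from series.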

How the data were processed

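Left ventricles of 3 CMNKO and 3 LC mice were sequenced for RNA. The authors deposited whole-number read counts per gene symbol and mouse, not normalized, from TRIzol RNA, TruSeq libraries and clean reads aligned to build mm8, as the notes of the submitters name it. The sources used here do not give the aligner, the counter or the use of strand, so reads of overlapping or antisense genes and of close paralogs could not be told apart. Deposited columns of the authors' own comparison (group means, log2 fold changes and FDR) were not used.

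The counts were fitted with edgeR 4.0.16 (R 4.3.3). Genes were kept by filterByExpr, scaled by TMM and compared by quasi-likelihood with genotype as the only term, and p-values were adjusted over all 13040 tested genes by the Benjamini-Hochberg method at 0.05. The replicates were separate mice. Profiles used log2(CPM + 1). Paralog ratios and NFAT shares used counts with a prior count of 0.5, per kilobase of transcript. Lengths were of the longest GENCODE M21 transcript. The genes and lists were chosen with earlier results of these data known. The text names all 10 genes, Ncor1, list genes past the threshold or otherwise the 2 of smallest p per list, and the 3 nearest profiles of 3 genes. Nppa, Nppb, Myh7, Camk2a and Camk2b are named in addition. Alternatives were DESeq2 1.42.0, limma-voom 3.58.1, other scalings and filters, removal of mitochondrially encoded genes, the library series as a term and each mouse left out. The procedure was tested on counts simulated with genotype effects and no effect of library series, so that test does not cover the series.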

Additional observations from a re-analysis of the deposited data

How the results depend on the processing

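Of the 10 genes, 0 passed the threshold under every alternative except the one without LC 15, where Nfatc1 did, so that the count ran from 0 to 1 with a mouse left out. The count of genes without overlap was 1 with library totals, against 2. Directions turned, with adjusted p above 0.05 by edgeR's quasi-likelihood test, for Nfatc3 with upper-quartile scaling (-0.015), for Nfatc2 with library totals (0.039), and with the library series as a term for Nfatc1 (-0.10), Camk2d (0.084), Camk2g (-0.067) and Calm2 (0.053). Series 1 alone, an alternative chosen after seeing the data, gave -0.10, 0.084, -0.067 and 0.053 for the same 4 genes. With a mouse left out the log2 fold change ran from -0.30 to 0.10 for Nfatc2, -0.036 to 0.12 for Nfatc3, -0.24 to 0.0056 for Camk2d and -0.034 to 0.16 for Camk2g. The difference in log2 ratio ran from -0.32 to 0.014 for Camk2d to Camk2g and from -0.051 to 0.55 for Rcan1 to Rcan2. Calls over all genes numbered 367 by DESeq2 (adjusted p not given for 1016 genes), 128 with upper-quartile scaling, 44 with library totals, 22 with the series as a term, 51 in series 1 alone and 0 to 2624 with a mouse left out. Calls among the other pathway genes numbered 4 by DESeq2, 1 with library totals, 1 with the series as a term (Myh7) and 0 to 16 with a mouse left out. Myh7 was lower in the CMNKO mice (965.5 to 1194 CPM) than in LC 15 (2136 CPM), the only LC mouse of series 1. It was higher in them than in LC 25 (501.8 CPM) and LC 26 (510.6 CPM). With library totals the all-gene median was 0.12, and 24 genes were higher and 20 lower, against 35 and 44 with TMM. The cause was not tested. No paired analysis was possible because CMNKO and LC mice share no numbers. Series 2 holds LC mice only, so that series and genotype can be separated only through LC 15.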
